A study of Homo sapiens with 20 samples.

Results

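Long intergenic noncoding RNAs were examined in lung cancer cell lines with and without decitabine (DAC), a cytosine analog that traps DNA methyltransferases and lowers DNA methylation in dividing cells. They were taken as the genes with a LINC symbol, that is LINC followed by digits only, whose mean level over 10 mRNA-seq libraries was at least 0.5 FPKM (fragments per kilobase, a read count scaled to transcript length and library depth). Of 895 LINC rows among 36076 genes in the table, 135 reached that level and are called LINC genes here. They were chosen by their level over both treatments together, which fixes no direction for the set, but their levels and the number of lines that express them follow in part from that choice. Single genes can pass through 1 treatment. Among those that did so through DAC were LINC00479 (mean 0.0838 FPKM in Mock, 1.47 after DAC), LINC00112 (0.0689 and 1.05) and LINC01694 (0.234 and 1.28). They also included LINC01447 (0.382 and 2.43), LINC00923 (0.442 and 1.80), LINC01252 (0.324 and 0.846), LINC01647 (0.353 and 0.707) and LINC01783 (0.340 and 0.755). LINC00853 (0.714 and 0.391) and LINC00471 (0.750 and 0.413) were among those that did so through Mock. The direction of such genes is partly tied to the choice. Just inside the limit stood LINC01637 at a mean of 0.519, LINC00189 at 0.514 and LINC01840 at 0.508 FPKM, and just outside it LINC01270 at 0.494, LINC01558 at 0.493 and LINC00910 at 0.484 FPKM.

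The 10 libraries came from 5 human lung cancer lines, A549, CL1-0, CL1-5 (an invasive subline derived from CL1-0), H1792 and PC9. Each line gave 1 Mock library, from cells given PBS, and 1 DAC library, from cells given 100 nM DAC for 72 h, and both were kept for 3 further days without drug. H1299, a further lung cancer line with a library of each treatment, was counted on a smaller gene set and is given apart. Omni-ATAC-seq, which marks accessible chromatin, was available for 4 of the lines (H1299, A549, PC9 and CL1-5), again with a single library for each treatment. The lines are the replicates, and Mock and DAC cells of a line came from the same parental culture.

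Long noncoding RNAs are transcripts that are often spliced and polyadenylated like mRNAs but carry no long reading frame, and those named LINC lie mostly between protein-coding genes. Some act on neighbouring genes in cis, some bind proteins or other RNAs elsewhere in the cell, and for many no function is known. Their expression is typically low and often limited to a few tissues. Promoter methylation at CpG dinucleotides is among the mechanisms that can keep such loci off, and loss of methylation after DAC can be followed by transcription from otherwise silent starts.

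Before the results, limits of the libraries are given. The 10 libraries held between 22234485 and 25303899 reads on genes, with a median of 24006698. In H1299, 25 LINC genes were listed at 0 in both libraries, as were all 21 mitochondrial genes that reached 1 FPKM in each of the other 10 libraries, so that a 0 there can be a gene that was not counted. The ATAC libraries labelled CL1-5 and PC9 carry the other line's name in their files, so they are called by their labels. Where their peaks are set beside the expression of a line, both namings are given, and counts within the ATAC libraries are given by label. The 5 markers of lung lineage (NKX2-1, NAPSA, SFTPB, SFTPC and SCGB1A1) stayed under 0.5 FPKM in all 12 libraries. Summed levels ranged from 0.986 to 3015 FPKM for 5 epithelial markers, from 11.1 to 657 for 4 mesenchymal markers and from 0.276 to 140 for 4 fibroblast markers, the latter highest in H1792 after DAC, where LUM went from 25.9 to 50.6 FPKM. Summed levels stayed at or under 8.52 FPKM for 5 leukocyte markers and 1.74 FPKM for 2 endothelial markers. The part of these differences in the results below was not tested, and in bulk RNA fewer cells that transcribe a gene and less RNA per cell cannot be told apart.

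By position, 134 of the 135 LINC genes matched the GENCODE annotation of GRCh37 (hg19), the build of the files, and LINC01251 did not. The annotation gave 128 of them as long noncoding RNAs, 4 as pseudogenes and 2 as protein-coding genes under other names. They lay on 23 chromosomes, with a median of 27179 bp to the nearest start of a coding gene, and 82 lay within 50000 bp of one. An exon on the opposite strand overlapped 30 of them and an exon on the same strand 7, and 12 held near-identical copies elsewhere (97% identity or more) over 25% or more of their longest transcript. The mRNA-seq libraries were made with a stranded kit, but whether reads were counted by strand is not given in the sources used here. For these genes reads from the partner therefore cannot be told apart.

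Most LINC genes were low. The mean level over the 10 libraries ranged from 0.508 to 38.9 FPKM with a median of 1.33 FPKM, 51 genes stayed under 1 FPKM and 9 reached 5 FPKM. The highest mean was that of LINC02043 (chr3:186528669-186543310, minus strand, 17183 bp from the start of ADIPOQ, the gene of the fat hormone adiponectin). In Mock LINC02043 stood at 22.1 FPKM in A549, 44.3 in CL1-0, 36.5 in CL1-5, 29.1 in H1792 and 12.8 in PC9. After DAC LINC02043 stood at 58.6 FPKM in A549, 43.5 in CL1-0, 48.0 in CL1-5, 72.4 in H1792 and 22.1 in PC9. Thus LINC02043 was higher in 4 of 5 lines, with a log2 fold change of 0.77 (SE 0.22, adjusted p = 0.329, limma), and the groups overlapped. It was followed by LINC00504 at a mean of 13.9 FPKM, LINC01551 at 13.0, LINC02582 at 10.8 and LINC01873 at 9.85 FPKM, of which LINC02582 and LINC01873 hold near-identical copies over 29.8% and 25.3% of their longest transcript. Exons of other genes overlap LINC01551 on both strands, and in H1299 it went from 20.3 to 107 FPKM.

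Of the LINC genes, the 5 with the smallest coefficient of variation were LINC01441 at 0.236, LINC01278, LINC02035, LINC00641 and LINC00863, with a median over all LINC genes of 0.909. LINC01278 ranged from 1.63 FPKM in H1792 after DAC to 3.35 FPKM in CL1-0 Mock. Within this range LINC01278 was lower after DAC in 5 of 5 lines, by a log2 fold change of -0.26 (SE 0.15, adjusted p = 0.561, limma), and in H1299 it went from 2.71 to 1.43 FPKM. LINC01441 stayed between 1.00 and 2.04 FPKM in the 10 libraries but stood at 12.8 and 14.3 FPKM in H1299. LINC00863 shares 98.3% of its longest transcript with near-identical copies.

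**Figure D1:**
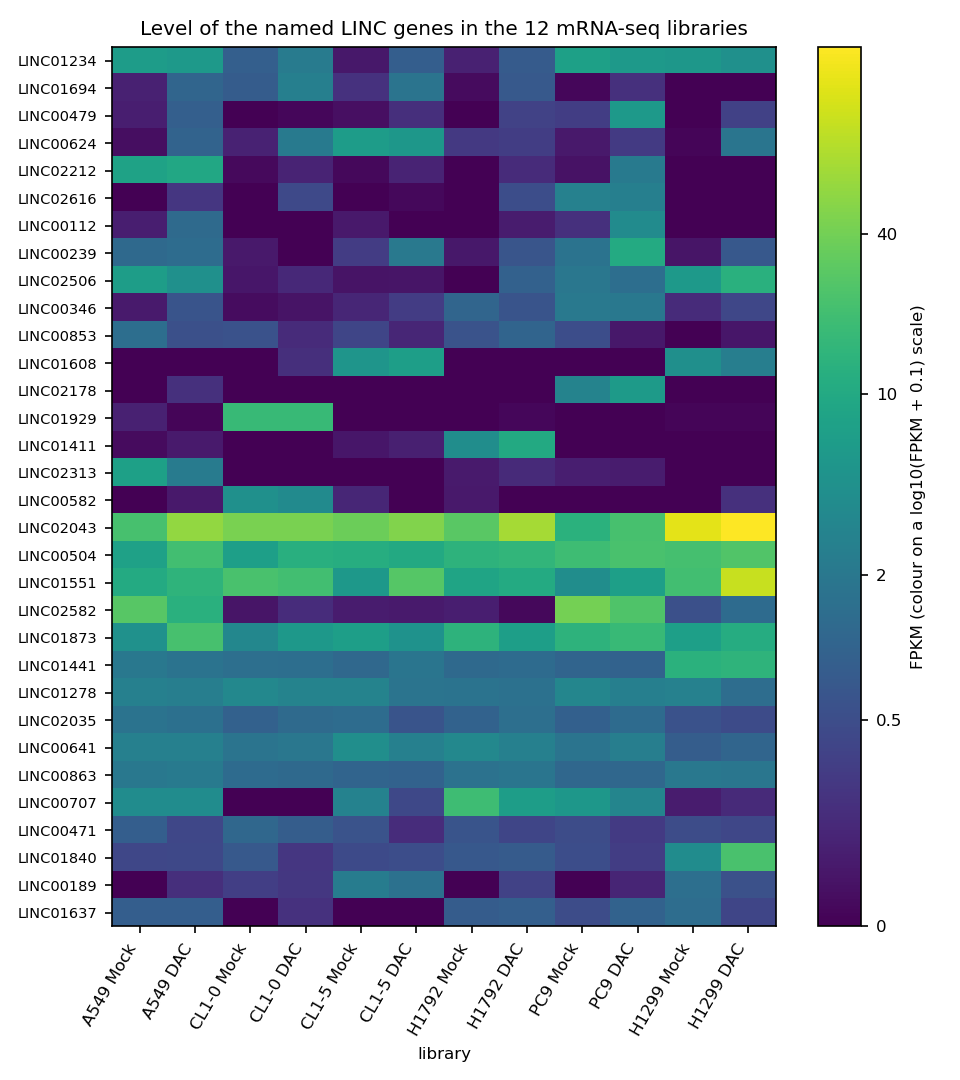
Level of the LINC genes named by the rule (rows) in each mRNA-seq library (columns), as colour on a log10(FPKM + 0.1) scale. LINC02043 was high throughout, LINC01929 stood at 16.96 and 17.10 FPKM in CL1-0 and near 0 elsewhere, and LINC00479 and LINC00112 were high in PC9 and A549 after DAC.

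Silent-to-expressed switches were examined next, to ask which LINC genes came on after DAC. A gene was called silent in a line under 0.1 FPKM and expressed at 0.5 FPKM or more, and a switch is a gene that was silent in Mock and expressed after DAC in that line. There were 11 such switches in 10 LINC genes over the 5 lines, against 1 change from expressed to silent. By share, 11 of 675 gene and line pairs (1.63%) switched on, beside 1.2% of pairs over all 15763 genes at a mean of 0.5 FPKM or more, and 0.148% switched off, beside 0.197%. Among genes at a mean of 0.5 to 5 FPKM, 1.75% of the pairs of 126 LINC genes and 1.8% of those of all genes switched on. Counted over silent pairs alone, 11 of 135 (8.15%) came on among LINC genes and 947 of 5643 (16.8%) among all genes. The share of LINC genes that switched on was thus near that of all genes, or lower where silent pairs alone were counted. With 1 library per line and treatment a switch has no test within a line.

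The switches fell mostly in A549 and H1792. Line by line, 4 LINC genes (2.96%) came on in A549, beside 2% of all genes, and 5 (3.7%) in H1792, beside 1.15%. CL1-5 and PC9 had 1 each (0.741%), beside 0.869% and 1.24%, and CL1-0 had none, beside 0.742%. The split by line depends on the limit of 0.1 FPKM. LINC00624 in CL1-0 (0.107 to 2.23 FPKM, 14 to 368 reads) and LINC01694 in A549 (15 to 191 reads) stood just above it in Mock. LINC01234 in H1792 stood just below it, at 0.0989 FPKM. Counted over the genes silent in Mock alone, LINC genes stood below all genes in each of the 5 lines, at 18.2% beside 28.6% in A549, 14.3% beside 16.02% in H1792, 5.26% beside 18.1% in PC9, 3.70% beside 14.2% in CL1-5 and 0% beside 8.60% in CL1-0. Of the 11 switches 7 were left without A549 and 6 without H1792. In H1299 4 came on (2.96%), beside 0.945% of all genes, and over silent genes alone 8.51% of 47 beside 4.93% of 3020. Of these silent H1299 genes 25 LINC genes and 1971 of all genes were at 0 in both libraries. They may not have been counted, so the H1299 shares over silent genes are uncertain. The Mock libraries held 0 to 11 reads on the gene at the 11 switches, of which 5 had 3 reads or fewer, and the DAC libraries held 10 to 145 reads with a median of 86.

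LINC00112 and LINC00479 were the 2 LINC genes that stayed under 0.5 FPKM in each of the 5 Mock libraries. Both therefore reached the limit for LINC genes only through their DAC libraries. They form a pair on chromosome 21 (chr21:43135966-43138135, plus strand, and chr21:43131680-43135935, minus strand) whose annotated starts lie 31 bp apart and point away from each other, and both switched on in A549. In Mock LINC00479 stood at 0.0883 FPKM in A549, 0 in CL1-0, 0.0349 in CL1-5, 0 in H1792 and 0.296 in PC9. After DAC LINC00479 stood at 0.916 FPKM in A549, 0.016 in CL1-0, 0.175 in CL1-5, 0.355 in H1792 and 5.89 in PC9. It was higher in 5 of 5 lines, by a log2 fold change of 1.96 (SE 0.51, adjusted p = 0.279, limma), with the DAC levels of CL1-0 and CL1-5 inside the Mock range. In Mock LINC00112 stood at 0.0894 FPKM in A549, 0 in CL1-0, 0.0707 in CL1-5, 0 in H1792 and 0.184 in PC9. After DAC LINC00112 stood at 1.29 FPKM in A549, 0 in CL1-0, 0 in CL1-5, 0.0798 in H1792 and 3.89 in PC9. Both genes were thus highest in PC9 and A549 after DAC, and neither reached 0.5 FPKM in another library. LINC00112 was higher in 3 lines and lower in 1, with a log2 fold change of 1.35 (SE 0.67, adjusted p = 0.509, limma). The PC9 values are no switch by the rule, since both genes stood above 0.1 FPKM in PC9 Mock. In reads, LINC00479 in A549 went from 4 to 49, a 10.4-fold difference with a 95% counting interval of 3.80 to 39.6, and LINC00112 from 1 to 17, a 14.4-fold difference with an interval of 2.26 to 602. Such intervals cover counting error only.

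RefSeq promoter windows, from 250 bases before to 50 after a RefSeq start, show the sequence at starts of these genes. Of the 135 LINC genes 98 had such a window, 94 of which matched a single place of GRCh37 exactly, and the coordinates here are those of that match. The windows of the pair, of LINC01234 and LINC02212 as other genes that switched on, and of LINC00471 as a gene at 0.488 FPKM or more in each Mock line but lower after DAC, are given 5′ to 3′ with each CpG (the motif CG, which reads the same on both strands) in capitals. At least 1 CG was present in 96.0% of all 35116 RefSeq promoters, so its presence sets nothing apart and its number is the point of comparison. The windows lie at chr21:43136346-43136645 (plus strand) for LINC00112, chr21:43135886-43136185 (minus) for LINC00479, chr12:114211439-114211738 (minus) for LINC01234, chr5:10502791-10503090 (minus) for LINC02212 and chr2:232379039-232379338 (minus) for LINC00471. That of LINC00112 lies downstream of its annotated start at chr21:43135966, which falls within the window of LINC00479.
LINC00112: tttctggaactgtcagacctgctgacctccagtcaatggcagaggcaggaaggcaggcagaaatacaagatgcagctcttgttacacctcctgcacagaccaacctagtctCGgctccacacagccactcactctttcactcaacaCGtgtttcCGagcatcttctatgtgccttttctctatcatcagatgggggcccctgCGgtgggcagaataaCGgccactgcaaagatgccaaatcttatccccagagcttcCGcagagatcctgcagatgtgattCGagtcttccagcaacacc
LINC00479: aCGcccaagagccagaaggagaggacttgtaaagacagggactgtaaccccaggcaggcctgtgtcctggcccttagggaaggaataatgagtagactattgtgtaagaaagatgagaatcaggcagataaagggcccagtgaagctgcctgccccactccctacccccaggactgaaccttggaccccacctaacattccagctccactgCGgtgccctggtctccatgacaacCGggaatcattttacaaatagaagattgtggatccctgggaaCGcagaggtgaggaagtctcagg
LINC01234: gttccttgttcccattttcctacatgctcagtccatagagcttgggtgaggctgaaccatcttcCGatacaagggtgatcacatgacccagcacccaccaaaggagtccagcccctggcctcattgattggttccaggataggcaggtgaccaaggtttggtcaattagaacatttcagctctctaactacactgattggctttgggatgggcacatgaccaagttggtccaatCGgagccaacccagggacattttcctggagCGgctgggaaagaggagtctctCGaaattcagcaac
LINC02212: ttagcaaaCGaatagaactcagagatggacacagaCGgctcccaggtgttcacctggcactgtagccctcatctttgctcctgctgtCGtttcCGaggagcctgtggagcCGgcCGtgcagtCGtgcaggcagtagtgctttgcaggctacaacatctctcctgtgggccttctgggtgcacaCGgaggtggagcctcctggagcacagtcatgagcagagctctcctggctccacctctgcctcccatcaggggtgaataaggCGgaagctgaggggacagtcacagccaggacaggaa
LINC00471: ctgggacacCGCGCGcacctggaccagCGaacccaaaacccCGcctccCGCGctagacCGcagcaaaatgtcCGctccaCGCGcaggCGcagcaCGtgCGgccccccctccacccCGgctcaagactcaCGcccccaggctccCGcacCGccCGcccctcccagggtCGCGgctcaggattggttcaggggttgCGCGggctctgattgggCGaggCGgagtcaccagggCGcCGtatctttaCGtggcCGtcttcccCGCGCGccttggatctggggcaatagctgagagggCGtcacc

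The windows of genes that switched on held few CpG. LINC00479 and LINC01234 held 4 each, LINC00112 held 7 and LINC02212 held 9, whereas LINC00471 held 33. Few CpG were not particular to them. Of the 5 LINC genes of smallest variation, LINC01441 and LINC00641 held 2 each, LINC02035 held 3, LINC01278 held 7 and LINC00863 held 21. All 5 switching genes with a window held between 4 and 9, with a median of 7, and none reached an observed over expected CpG ratio of 0.6, the usual limit of a CpG island. Over all LINC genes with a window the median was 10 CpG and 36.7% reached that ratio, beside 14 CpG and 48.9% over all RefSeq promoters. The 1639 other LINC promoters in RefSeq had a median of 4 CpG, below that of the switching genes, and 15.9% reached the ratio. The 26 LINC genes with a window that were expressed in all 5 Mock lines had a median of 19.5 CpG, and 50% reached the ratio. These numbers describe sequence alone, and DNA methylation was not analysed here.

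LINC01234 (chr12:114021691-114211531), a long noncoding RNA studied in several cancers, was the only LINC gene to switch on in 2 of the 5 lines. In Mock LINC01234 stood at 6.61 FPKM in A549, 0.907 in CL1-0, 0.0658 in CL1-5, 0.0989 in H1792 and 7.47 in PC9. After DAC LINC01234 stood at 6.03 FPKM in A549, 2.24 in CL1-0, 0.882 in CL1-5, 0.799 in H1792 and 6.14 in PC9. It was thus higher after DAC in the 3 lines where it was low and not in the 2 where it was high. In reads it went from 8 to 96 in CL1-5 (13.4-fold, 95% counting interval 6.53 to 31.9) and from 11 to 86 in H1792 (8.08-fold, interval 4.30 to 16.8). Over the 5 lines its log2 fold change was 1.11 (SE 0.45, adjusted p = 0.441, limma).

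Of the 10 LINC genes that switched on, 8 were at 0.5 FPKM or more in at least 1 other line in Mock. LINC02212 (chr5:10493403-10502840) stood at 7.93 FPKM in A549 Mock and 9.61 after DAC, and in PC9 went from 0.0452 to 2.15 FPKM. This was the largest fold in reads among switches with a nonzero Mock count, from 2 to 106 (47.6-fold, 95% counting interval 12.9 to 398). In CL1-0, CL1-5 and H1792 LINC02212 reached 0.111, 0.116 and 0.157 FPKM after DAC, from at most 0.0199, so it was higher in 5 of 5 lines (log2 fold change 1.46, SE 0.52, adjusted p = 0.386, limma). An exon on the same strand overlaps LINC02212.

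LINC00624 (chr1:146730539-146989699, 23572 bp from the start of BCL9, a coactivator of Wnt signalling) was a CL1-5 transcript in Mock, at 6.60 FPKM there and 0.0335 in A549, 0.107 in CL1-0, 0.254 in H1792 and 0.0692 in PC9. After DAC LINC00624 stood at 1.03 FPKM in A549, 2.23 in CL1-0, 5.54 in CL1-5, 0.300 in H1792 and 0.264 in PC9. It went from 4 to 145 reads in A549 (30.7-fold, 95% counting interval 11.7 to 114). In H1299 it went from 0.0126 to 1.84 FPKM. LINC00624 and LINC00239 were the 2 genes that switched on in H1299 as well as in another line. Exons of other genes overlap LINC00624 on the opposite strand, and BCL9 itself had a log2 fold change of -0.31 (SE 0.17, adjusted p = 0.542, limma).

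In H1792 the switches were those of LINC01694, LINC01234, LINC02506, LINC00239 and LINC02616. LINC02506 (chr4:31998998-32230165) and LINC02616 (chr4:37003394-37025121) held no read in H1792 Mock and 17 and 31 reads after DAC. With the Mock count set to a floor of 3 reads this is 5.86-fold and 10.7-fold, with no counting error put on the DAC reads. LINC02616 had been a PC9 transcript, at 2.77 FPKM in PC9 and 0 in the other 4 Mock libraries. After DAC it stood at 0.234 FPKM in A549, 0.440 in CL1-0, 0.0163 in CL1-5, 0.510 in H1792 and 2.59 in PC9. LINC00239 (chr14:102196774-102198871, 31272 bp from PPP2R5C, a regulatory subunit of protein phosphatase 2A) went from 1 to 10 reads in H1792, a 10.3-fold difference with an interval of 1.47 to 449. Beyond its switch, LINC00239 went from 1.73 to 10.3 FPKM in PC9 and from 0.289 to 2.06 FPKM in CL1-5, but from 0.0663 to 0 in CL1-0. Over the 5 lines the log2 fold changes were 0.61 for LINC02506 (SE 0.57), 1.38 for LINC02616 (SE 0.46) and 1.32 for LINC00239 (SE 0.53), with adjusted p of 0.716, 0.371 and 0.438 in limma. In A549 the last switch was that of LINC00346 (chr13:111516334-111522677), from 0.0745 to 0.618 FPKM and 10 to 98 reads (8.30-fold, 95% counting interval 4.33 to 17.9). LINC00346 was at 1.087 and 2.096 FPKM in H1792 and PC9 Mock, and its log2 fold change was 0.46 (SE 0.39, adjusted p = 0.689, limma).

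The change from expressed to silent was that of LINC00853 (chr1:47644922-47646011, 6094 bp from the start of PDZK1IP1, a small membrane protein gene). In Mock LINC00853 stood at 1.48 FPKM in A549, 0.577 in CL1-0, 0.391 in CL1-5, 0.610 in H1792 and 0.509 in PC9. After DAC LINC00853 stood at 0.538 FPKM in A549, 0.153 in CL1-0, 0.125 in CL1-5, 1.07 in H1792 and 0.0654 in PC9. It was lower in 4 of 5 lines and higher in H1792, with a log2 fold change of -1.003 (SE 0.38, adjusted p = 0.415, limma). The switch in PC9 was from 7 reads to 1. PDZK1IP1 had a log2 fold change of 1.36 (SE 0.46, adjusted p = 0.374, limma), and an exon on the opposite strand overlaps LINC00853. In H1299 LINC01564 went from 0.556 FPKM to 0.

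Across the 5 lines, DAC was compared with Mock by limma on log2(FPKM + 0.1) over 22983 genes, with the line as a block. No LINC gene passed an adjusted p of 0.05 in either direction, beside 30 genes higher (0.131%) and 0 lower (0%) over all genes. At an unadjusted p under 0.05, 28 LINC genes (20.7%) were higher, beside 8.08% of all genes, and 5 (3.7%) were lower, beside 2.78%. Some genes in both counts reached the limit for LINC genes only through 1 treatment, so their direction is partly tied to the choice. Among genes at a mean of 0.5 to 5 FPKM the shares higher were 21.4% of 126 LINC genes and 9.31% of all genes. With a line left out, the number higher was 16 without H1792 (11.9%, beside 6.84% of all genes) and 17 without PC9 (12.6%, beside 5.8%). It was 22 without CL1-5 (16.3%, beside 7.14%) and 18 (13.3%) without A549 or CL1-0, beside 5.83% and 7.06%. The number lower was 1 without CL1-5 (0.741%, beside 3.63%) and 2 (1.48%) without A549 or PC9, beside 1.73% and 1.57%. It was 6 (4.44%) without CL1-0 or H1792, beside 1.78% and 4.06%. Without the line as a block 4 (2.96%) were higher and 0 lower, beside 1.97% and 0.174% of all genes. With the sign of the change alone, 19 LINC genes (14.1%) were higher in 5 of 5 lines, beside 6.45% of all genes, and 4 (2.96%) were lower in 5 of 5, beside 4.41%. In all 94 LINC genes had a positive and 41 a negative log2 fold change, with a median of 0.16 beside 0.05 for all genes tested. With quantile normalization, which moved the median of all genes from 0.05 to -0.05, the split was 69 to 66, the median 0.02 and the counts at an unadjusted p under 0.05 were 15 higher (11.1%, beside 5.38% of all genes) and 10 lower (7.41%, beside 5.34%). With limma voom on the recovered reads 4 of 135 LINC genes were called higher (LINC00479, LINC00923, LINC01447 and LINC01694), beside 246 of 22983 genes, and 0 lower. All 4 had a Mock mean under 0.5 FPKM (0.0838, 0.442, 0.382 and 0.234) and reached the limit for LINC genes only through DAC. Their direction is thus partly tied to the choice.

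LINC01694 (chr21:47010685-47023002, plus strand, 17406 bp from the start of SLC19A1, the reduced folate carrier) had the smallest p. In Mock LINC01694 stood at 0.103 FPKM in A549, 0.827 in CL1-0, 0.200 in CL1-5, 0.0237 in H1792 and 0.0141 in PC9. After DAC LINC01694 stood at 1.11 FPKM in A549, 2.60 in CL1-0, 1.75 in CL1-5, 0.747 in H1792 and 0.184 in PC9. It was higher in 5 of 5 lines, with a mean of 0.234 ± 0.340 FPKM in Mock and 1.28 ± 0.934 after DAC (SD, n = 5) and a log2 fold change of 2.17 (SE 0.30, adjusted p = 0.0709, limma). The groups overlapped, since CL1-0 was higher before DAC than H1792 and PC9 were after it. Its switch in H1792 was from 4 to 122 reads (31.5-fold, 95% counting interval 12 to 118). SLC19A1 had a log2 fold change of -0.17 (SE 0.17, adjusted p = 0.728, limma), and LINC01694 was listed at 0 in both H1299 libraries.

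The 5 other genes higher in 5 of 5 lines that had the next smallest p were chosen after their values were seen. LINC00942 had a log2 fold change of 1.52 (SE 0.30), LINC01447 of 1.82 (SE 0.39), LINC00923 of 1.52 (SE 0.34), LINC01419 of 1.74 (SE 0.40) and LINC01252 of 1.07 (SE 0.27), with adjusted p between 0.181 and 0.269 (limma). Of these, LINC01447, LINC00923 and LINC01252 reached the limit for LINC genes only through DAC, so their direction is partly tied to the choice. LINC00942 and LINC01419 had Mock means of 0.620 and 0.521 FPKM. LINC01447 went from 0.625 to 7.89 FPKM in A549, 0.430 to 1.35 in CL1-0, 0.307 to 1.72 in CL1-5, 0.409 to 0.664 in H1792 and 0.139 to 0.548 in PC9. LINC01419 went from 0.307 to 3.82 FPKM in A549, 0.668 to 1.98 in CL1-0, 0.849 to 4.85 in CL1-5, 0.371 to 0.521 in H1792 and 0.411 to 1.11 in PC9. Both were higher still in H1299, where LINC01447 went from 10.98 to 41.14 FPKM and LINC01419 from 12.9 to 34.6 FPKM. Neither LINC01447 nor LINC01419 was silent in any Mock library, so neither is among the switches.

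Among the lower genes, the smallest mean log2 fold changes were those of LINC00853, LINC00707 and LINC00471. LINC00707 (chr10:6821511-6884868) stood at 3.92 FPKM in A549, 0 in CL1-0, 2.79 in CL1-5, 19.1 in H1792 and 5.56 in PC9 in Mock. After DAC LINC00707 stood at 3.95 FPKM in A549, 0 in CL1-0, 0.416 in CL1-5, 6.81 in H1792 and 3.07 in PC9. It was lower in 3 lines and nearly level in A549, with a log2 fold change of -0.96 (SE 0.38, adjusted p = 0.428, limma). LINC00471 (chr2:232373131-232379107) was lower in 5 of 5 lines, from 0.874 to 0.401 FPKM in A549, 1.16 to 0.843 in CL1-0, 0.604 to 0.161 in CL1-5, 0.629 to 0.390 in H1792 and 0.488 to 0.270 in PC9. Its mean was 0.750 ± 0.267 FPKM in Mock and 0.413 ± 0.260 after DAC (SD, n = 5), with a log2 fold change of -0.81 (SE 0.23, adjusted p = 0.320, limma), and the groups overlapped.

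**Figure D2:**
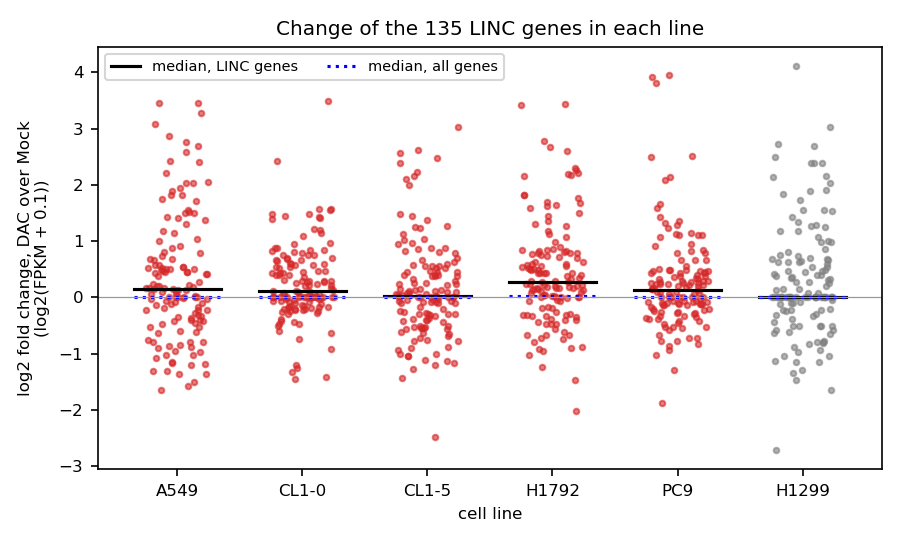
Log2 fold change (DAC over Mock, log2(FPKM + 0.1)) of each of the 135 LINC genes in each line, with the median of the LINC genes (solid line) and of all genes (dotted line). The medians of the LINC genes were 0.16 in A549, 0.10 in CL1-0, 0.02 in CL1-5, 0.27 in H1792, 0.12 in PC9 and 0 in H1299, while those of all genes were between 0 and 0.03.

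The number of LINC genes at 0.5 FPKM or more was higher after DAC in each line, as was that of all genes. For LINC genes it went from 86 to 100 in A549, 84 to 86 in CL1-0, 83 to 87 in CL1-5, 77 to 86 in H1792, 87 to 93 in PC9 and 66 to 70 in H1299. In shares this was 63.7% to 74.1% in A549, beside 84.8% to 89.8% of all genes, and 57% to 63.7% in H1792, beside 85.3% to 87.6%. The number under 0.1 FPKM was lower in each line, most in H1792 (35 to 19) and A549 (22 to 12), and over all genes it was lower in each line too (7.17% to 4.93% in H1792 and 7% to 3.2% in A549). Changes of at least 2-fold on the log2(FPKM + 0.1) scale were mostly upward, among LINC genes and among all genes. In A549 31 LINC genes (23%) were up and 14 (10.4%) down, beside 11.7% and 6.64% of all genes. In H1792 27 (20%) were up and 4 (2.96%) down, beside 8.84% and 4.71%. In PC9 20 (14.8%) were up and 3 (2.22%) down, beside 7.35% and 1.75%. CL1-5 had 18 (13.3%) up and 11 (8.15%) down, beside 5.46% and 2.91%, and CL1-0 had 15 (11.1%) up and 5 (3.7%) down, beside 4.67% and 1.01%. In H1299 27 (20%) were up and 10 (7.41%) down, beside 7.28% and 3.22%.

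Beside other noncoding classes, the 198 tested LINC rows under 0.5 FPKM had 25 higher (12.6%) and 2 lower at an unadjusted p under 0.05. Of 410 antisense RNAs 32 (7.80%) were higher and 9 lower, and of 20 host genes of small nucleolar RNAs (SNHG) 1 was higher and 3 lower. Of 31 long noncoding RNAs with names of their own 3 were higher and 0 lower. Among 14869 protein-coding genes 7.83% were higher and 3.13% lower. The LINC, antisense and SNHG lists and the named list had no gene past the adjusted threshold, and differences between classes were not tested.

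The coding neighbours were followed in the same fit. Of the LINC genes with a coding start within 50000 bp, 70 had a neighbour that was tested, and none of these neighbours passed the adjusted threshold in limma, while 5 had an unadjusted p under 0.05. The median log2 fold change of the neighbours was 0.07. In 29 pairs both the LINC gene and its neighbour had a positive value, with 49 LINC genes and 42 neighbours positive in all, and the Pearson correlation across the pairs was -0.03, over genes that share the same libraries.

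Line restriction was then examined. A gene was called restricted when 1 line held at least 80% of its FPKM summed over the 5 Mock libraries. This held for 23 LINC genes (17%), beside 5.32% of all genes, and, among genes at a mean of 0.5 to 5 FPKM, for 18.3% of LINC genes beside 7.82%. PC9 held 7 of the 23, CL1-5 6, A549 and CL1-0 4 each and H1792 2. The median share of the highest line was 44.8% for LINC genes and 32.8% for all genes. By number of lines, 27 LINC genes were at 0.5 FPKM or more in 1 Mock line, 23 in 2, 24 in 3, 23 in 4 and 36 in 5, with 2 in none. The share in all 5 lines was 26.7%, beside 67.7% of all genes, and that in 1 line was 20%, beside 4.97%. Since the levels chose the LINC genes, these counts are a description.

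The most restricted LINC genes were nearly absent outside their line. LINC01929 (chr18:52773135-52791537) stood at 16.96 FPKM in CL1-0 Mock, at 0.103 in A549 and at 0 in CL1-5, H1792 and PC9. It stayed there after DAC, at 17.10 FPKM in CL1-0 and at most 0.0131 in the other 4. CL1-5 derives from CL1-0, and LINC01929 was listed at 0 in both CL1-5 libraries. LINC01608 stood at 5.25 FPKM in CL1-5 Mock and 0 in the other 4, and in H1299 at 4.37 FPKM. LINC02178 (chr16:50424827-50429044, 26145 bp from BRD7, a bromodomain gene) stood at 2.94 FPKM in PC9 Mock and 0 in the other 4, and went to 6.30 FPKM in PC9 after DAC. LINC01411 (chr5:173763298-173959460) stood at 4.15 FPKM in H1792 Mock and 10.1 after DAC, and at most 0.0975 elsewhere. LINC02313 (chr14:32414059-32419588) stood at 7.47 FPKM in A549 Mock and 2.30 after DAC, and at most 0.152 elsewhere. LINC00582 (chr1:231727038-231747836, 14700 bp from DISC1) stood at 4.47 FPKM in CL1-0 Mock and 3.73 after DAC. No change of these 6 genes over the lines passed the threshold, with adjusted p between 0.583 and 0.871 in limma.

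Fewer LINC genes were restricted after DAC. The count was 14 (10.4%), beside 4.26% of all genes, and 13 of the 14 were restricted to the same line in Mock. Of the 23, 10 were under 80% after DAC, among them LINC02212 (99.0% in A549 to 79.1%), LINC02616 (100% in PC9 to 68.4%), LINC00624 (93.4% in CL1-5 to 59.1%) and LINC00189 (88.3% in CL1-5 to 64.0%). LINC00189 begins 34 bp from BACH1, a transcription repressor gene, and shares an exon stretch on the same strand. The 1 gene that became restricted was LINC00479, from 70.6% to 80.1% in PC9. The share of the highest line was lower after DAC in 80 LINC genes and higher in 55, yet the median share was nearly the same, at 44.7%.

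**Figure D3:**
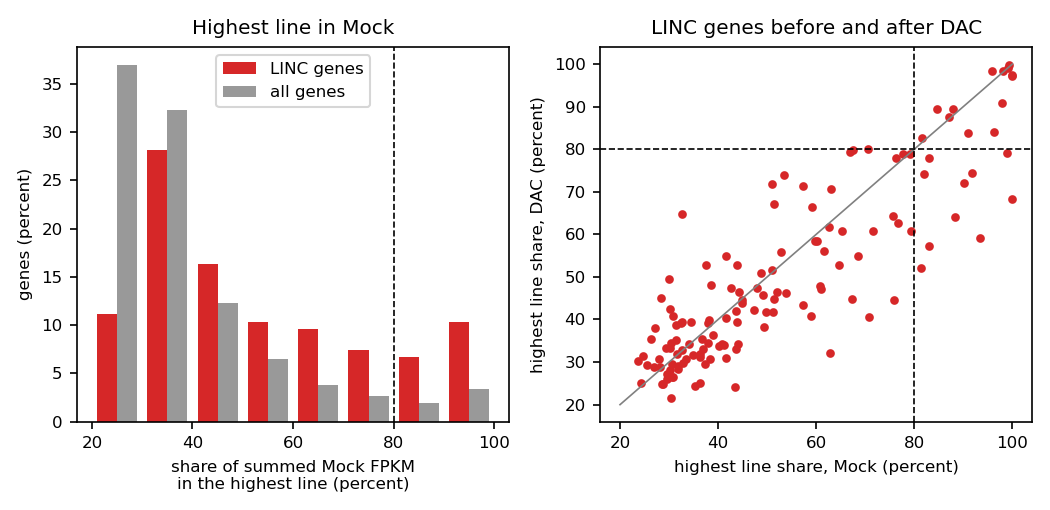
Left, share of summed Mock FPKM held by the highest of 5 lines, as the percentage of LINC genes and of all genes at a mean of 0.5 FPKM or more in each bin. Right, the same share of each LINC gene in Mock and after DAC. Dashed lines mark 80%: 23 LINC genes lay past it in Mock and 14 after DAC.

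The restricted genes had CpG-poor starts. The 15 with a RefSeq window held 0 to 10 CpG with a median of 4, and none reached an observed over expected ratio of 0.6. LINC02178 had no CG at all in its window, LINC01929 had 2, LINC00582 had 3, LINC02313 had 5 and LINC01411 had 10. The 1639 other LINC promoters in RefSeq had the same median of 4, and 15.9% of them reached the ratio.

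Accessible chromatin at the starts is a readout that did not choose the genes. A broad peak within 3000 bp of a start was present for 64.9% (H1299 Mock) to 79.1% (A549 DAC) of the 134 LINC genes by library, with 85.0 to 89.4% for all genes at a mean of 0.5 FPKM or more.
In A549 the number went from 92 in Mock to 106 after DAC, with 15 LINC genes gaining a peak and 1 losing it. Of the LINC genes without a peak in Mock 35.7% gained one in A549, beside 23% of all genes. In H1299 9 gained and 5 lost a peak (19.1% of those without, beside 21.8%). In the libraries labelled CL1-5 6 gained and 2 lost a peak (18.2%, beside 19.8%), and in those labelled PC9 5 gained and 5 lost one (15.2%, beside 21.1%). The number of peaks in a library was higher after DAC in each line, from 58734 to 78199 in A549, and the depth of each ATAC library is unknown.

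Expressed LINC genes had a peak more often than silent ones in A549 and H1299. In A549 Mock 68 of 86 expressed (79.1%) and 9 of 22 silent genes (40.9%) had a peak, and in H1299 Mock 46 of 66 (69.7%) and 24 of 46 (52.2%). With the libraries as labelled the order was turned in CL1-5 Mock, where 74.4% of the expressed and 81.5% of the silent genes had a peak, and in PC9 Mock, at 75.9% and 77.8%. With CL1-5 and PC9 exchanged, the shares were 84.1% and 55.6% in CL1-5 Mock and 77.0% and 50% in PC9 Mock. Genes expressed in only one of both lines were counted too. Of 10 LINC genes expressed in CL1-5 and silent in PC9, a peak was found for 6 under the CL1-5 label and 9 under the PC9 label in Mock, and of 12 expressed in PC9 and silent in CL1-5, for 11 and 7.

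Of the 6 switches in a line with ATAC libraries other than H1299, 5 had a peak at a start in Mock. H1792, with 5 of the 11 switches, has none of the ATAC libraries used here. Among the 6 switches in A549, CL1-5 and PC9, LINC00112, LINC00479, LINC00346, LINC01234 and LINC02212 had a peak within 3000 bp both before and after DAC, with either naming of the CL1-5 and PC9 libraries. In A549 this was 3 of the 4 genes that switched on, beside 40.9% of all silent LINC genes there. LINC00112 and LINC00479, with starts 31 bp apart, had the same A549 peak (5.58-fold over background in Mock and 4.38-fold after DAC). That 1 peak is counted for both genes in these numbers. LINC00624 was the exception among the 6 switches, with its nearest peak 21288 bp from a start in A549 Mock and a peak over a start after DAC. In H1299, where it also switched on, the distance was 22634 bp in Mock and 0 after DAC. Of the other H1299 switches, LINC00239 had a peak within 3000 bp before and after DAC, LINC01474 had none in either library, at 14750 and 21831 bp, and LINC01251, which did not match the annotation, was not looked up. A peak over the 300-base window of LINC00479 printed above was present in both A549 and both libraries labelled CL1-5, and in neither H1299 nor either library labelled PC9. Over the window of LINC00112 a peak was present in A549 Mock but not in A549 DAC. That window lies downstream of the LINC00112 start that is paired with LINC00479. LINC02616 had no peak in A549 Mock and one after DAC, where its level went from 0 to 0.234 FPKM, and it had a peak in the libraries labelled CL1-5 but not in those labelled PC9, the line that expressed it. With the names of these libraries exchanged, the LINC02616 peak was in PC9 and not in CL1-5, and the LINC00479 window had its peak in PC9 and not in CL1-5.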

How the data were processed

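mRNA-seq and Omni-ATAC-seq of lung cancer lines were used, with 1 library per line and treatment, grouped by their labels. FPKM values were deposited by the authors after alignment to hg19 (RSEM, bowtie2), counting on a GENCODE annotation and normalization with DESeq2. The labels also name TopHat2 2.1.1 among the tools. The same deposited table gives a mean normalized signal per gene, used to recover reads, and the authors' own fold changes, errors, test values and p-values, which were not used. The authors' peak lists (BWA 0.7.17-r1188, MACS2 2.2.5 broad peaks per library, ChIPseeker 1.20.0) give, as deposited, a score for each peak, its fold over background and its −log10 p-value and q-value. The number of value columns without a sample was 0.

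Reads were recovered as whole multiples of the FPKM of 1 read, within a tolerance of 0.05 reads, for 100% of the values checked in each library. Among values of few reads 81.9 to 85.5% were even in H1299, beside 39.2 to 41.5% in the other 10 libraries. The reads of H1299 are therefore not independent counts. Genes at a mean of at least 0.1 FPKM in the 10 libraries were fitted with limma 3.58.1 on log2(FPKM + 0.1), with an intensity trend, the line as a block and Benjamini-Hochberg adjustment at 0.05. This scale makes the changes of low genes look smaller than they are. Mock and DAC of a line deviated together from their treatment means (r 0.675 to 0.834, and at most 0.124 between lines), and same-numbered libraries share the line and parental culture. P-values measure the spread between lines.

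LINC genes, lists and tests were chosen with earlier results of these data known. Genes were named by a rule: up to 10 called, up to 10 that switched on, up to 3 that switched off, the 8 most restricted (at most 2 a line), the 5 highest, the 5 of smallest variation, the 3 lowest log2 fold changes and 3 on each side of the limit; exceptions are marked. Counting intervals are exact at 95%, the floor is 3 reads, and both cover counting error only. Near-identical copies were sought with blastn 2.17.0+ (at least 200 bp). Promoter sequences are from RefSeq on GRCh38.p14, placed on GRCh37 by exact match. The fit was tested on simulated data. Alternatives were other sets of lines, no block, other pseudocounts, filters and scalings, voom, no trend, other limits, windows and peak lists, and each line left out. Leaving out genes with exon overlaps or copies was added after seeing the data.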

Additional observations from a re-analysis of the deposited data

Results flagged for a closer look

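Among the 32 LINC genes named by the rule, 4 had 1 line whose log2 fold change stood far from the other 4 by Dixon's ratio (limit 0.71 for 5 lines), and chance alone flags about 1 in 20 groups. That rate does not hold for LINC01608, LINC01929 and LINC02313, which are restricted to 1 line and at or near 0 in most others, so that their log2 fold changes there lie near 0 by construction. LINC00853 was at 0.72 in H1792, whereas the other 4 lines lay between -1.88 and -1.13; its ratio was barely past that limit. LINC01608 was at 1.48 in CL1-0, where it went from 0 to 0.180 FPKM, and between 0 and 0.40 elsewhere. LINC01929 was at -0.85 in A549, from 0.103 to 0.0125 FPKM, and between 0 and 0.18 elsewhere. LINC02313 was at -1.66 in A549, the line that held it, and between -0.07 and 0.54 elsewhere, in lines where it stood at or under 0.152 FPKM.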

How the results depend on the processing

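Calls and counts were recomputed under each alternative. No LINC gene was called lower under any of them, and none was called higher except with limma voom on the recovered reads. Voom called 4, all of which reached the limit for LINC genes only through DAC. It gave LINC01694 and LINC00479 log2 fold changes of 2.975 and 3.597. Without the replicate block the calls were again 0 higher and 0 lower. The LINC genes higher at an unadjusted p under 0.05 numbered 4 (2.96%, beside 1.97% of all genes) in place of 28. That count was also 15 with quantile normalization and 16 to 22 with a line left out. Those lower numbered 1 without CL1-5, 2 without A549 or PC9 and 10 with quantile normalization, in place of 5. They numbered 3 with voom (2.22%, beside 1.4% of all genes) and 0 without the block. The shares for the other counts are given above.

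The 11 switches became 5 with silence under 0.05 FPKM, 3 with expression at 1 FPKM or more and 6 for LINC genes at a mean of at least 1 FPKM. Over the larger set of 799 LINC rows above 0 in the 10 libraries there were 45. With a line left out they ranged from 6 (without H1792) to 11, with 7 without A549. The 23 restricted genes became 14 at a limit of 90%, 46 at 60%, 7 when the other 4 lines had to be silent, 14 in the DAC libraries and 14 at a mean of at least 1 FPKM. The share with a promoter peak, 73.1% as the mean of 8 libraries, was 31.1% by the peak list's own gene and distance. Restricting the counts to the 92 LINC genes with no exon overlap and no copies, an alternative chosen after seeing the data, left 9 switches and 18 restricted genes. It left 23 genes higher (25%) and 3 lower (3.26%) at an unadjusted p under 0.05 and 0 changes from expressed to silent, in place of 28, 5 and 1. Apart from the restricted count in the DAC libraries, these recounts of switches and restricted genes were not made over all genes. They therefore give no comparison with all genes.

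The sign of the log2 fold change turned for 10 of the 32 named genes, none of them called. With quantile normalization it was -0.10 for LINC01441, -0.13 for LINC02035 and -0.13 for LINC00863. With H1299 included it was 0.019 for LINC00582, -0.011 for LINC00863 and 0.15 for LINC01840. In the study's 5 lines it was 0.17 for LINC00582, -0.10 for LINC02035, 0.055 for LINC00641, -0.044 for LINC00863 and 0.15 for LINC01840. With voom it was 0.048 for LINC01929. With a line left out it ranged from -0.090 to 0.92 for LINC02506, -0.21 to 0.048 for LINC01929, -0.43 to 0.12 for LINC02313, -0.11 to 0.68 for LINC01873, -0.067 to 0.13 for LINC01441, -0.072 to 0.33 for LINC02035, -0.21 to 0.059 for LINC00641 and -0.029 to 0.034 for LINC00863. The cause was not tested. Depth limits the switches, 5 of which rest on 3 Mock reads or fewer.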
